A study of Mus musculus with 18 samples.

Results

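Testes of hypogonadal (hpg) mice taken after 24 h of follicle-stimulating hormone (FSH) were compared with testes of untreated hpg mice measured on arrays of the same technical set. The comparison took the 3 samples titled as 24 h of recombinant FSH and the first 3 untreated controls, which are 6 of the 18 arrays of the study. They were chosen by their titles and by the array set, since these 6 arrays carried no signal for the Dap spike-in. Treated males were hpg mice aged 10 weeks that received 8 IU of recombinant FSH under the skin in 0.2 ml at intervals of 12 h over 24 h, and were killed 1 h after the last injection. Controls were untreated hpg males of the same age, so they were given neither hormone nor vehicle. All mice carry the hpg mutation, which removes gonadotrophin-releasing hormone and leaves the testis with almost no FSH or luteinising hormone of its own. Each mouse gave 1 array from whole testis, and the other groups of the study held 4 mice at 12 h, 4 at 72 h and 4 further controls.

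FSH acts through a receptor that couples to Gs, raises cyclic AMP and activates protein kinase A. In the testis this receptor is made by Sertoli cells, which line the seminiferous tubules, support the germ cells and secrete inhibin. Leydig cells lie between the tubules and make androgen under luteinising hormone, and Sertoli cells respond to that androgen through their own receptor. The hpg testis therefore gives a view of FSH in a tissue whose Sertoli and Leydig cells have seen little gonadotrophin.

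All values are log2 expression of a probe set, a group of short probes against 1 transcript, as the authors deposited them. Differences are 24 h minus control with their standard error (SE), and values of different probe sets are not compared as levels. The Dap probe sets read 2.70 to 3.41 on the 6 arrays and 8.05 to 8.86 on the other 12. Array medians were 4.44 to 4.51 at 24 h and 4.48 to 4.52 in the controls. The interquartile range was 4.25 to 4.50 at 24 h and 4.53 to 4.72 in the controls, without overlap. Signal at the 3 prime end of Gapdh exceeded that at its 5 prime end by -0.63 to -0.50 on the FSH arrays and by -0.43 to -0.16 on the control arrays, again without overlap. For actin these ranges, 0.82 to 1.08 and 0.90 to 1.10, overlapped. Control 1 stood apart in 18S ribosomal RNA, with 9.07 against 11.67 and 11.69 in the other controls and 11.05 to 11.18 at 24 h. It also read 4.92 for the fat cell gene Adipoq, which was 2.17 to 2.24 on the other 5 arrays, and the part of these array differences in the results was not tested.

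After 24 h of FSH, 393 of 22626 probe sets were called changed, which is 1.74% (limma on the 6 arrays, adjusted p below 0.05). Of these 152 rose (0.672% of all tested) and 241 fell (1.07%), and they belonged to 332 named genes, 126 with a rise and 206 with a fall. The change was at least 2-fold for 215 probe sets and at least 4-fold for 77. The median called rise was 1.05 and the median called fall -1.12, against 0.04 over all probe sets. With the spread between replicates taken from all 18 arrays the same differences gave 3023 calls (13.4%), 1381 higher (6.1%) and 1642 lower (7.26%). This second test is called the pooled spread in what follows. The median standard deviation between replicates was 0.164 at 24 h and 0.145 in controls 1 to 3. It was 0.119 at 12 h, 0.107 at 72 h and 0.132 in controls 4 to 7. The pooled spread may therefore be too small for the 24 h comparison, and how many calls this adds was not tested. A total of 370 of the 393 probe sets were called in it too.

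The calls on the 6 arrays depended on control 2 and on the treatment of pairs. Without control 2 the count was 0 (smallest adjusted p = 0.0515, with 3212 probe sets at an unadjusted p below 0.05 in limma). With the replicate number as a block it was also 0 on the 6 arrays (smallest adjusted p = 0.0574, 4957 at an unadjusted p below 0.05). That fit had 2 residual degrees of freedom, against 4 without the block, and the part of this loss in the count of 0 was not tested. With the same block and the pooled spread (11 residual degrees of freedom) the count was 4827, 2687 higher (11.9%) and 2140 lower (9.46%). Of the 393 probe sets 370 were among them. The count was 97, 72 and 77 without FSH array 1, 2 or 3, 15 without control 1 and 231 without control 3. Where a pair of adjusted p values follows a difference, the first is from the 6 arrays and the second from the pooled spread.

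All 393 called probe sets had 3 FSH arrays on 1 side of all 3 controls. Such separation was common in the whole table, with 5830 probe sets (25.8%) entirely higher and 2525 (11.2%) entirely lower. It was tied to brightness. Of 7317 probe sets with a mean under 3, 49.6% were entirely higher after FSH by a median of 0.06 and only 2 were called higher. Of 3723 probe sets at 8 or more, 16.9% were entirely higher and 22.1% entirely lower. The dimmest probe sets therefore read slightly higher on the 24 h arrays, and separation of such a probe set carries little weight. Shares of all genes that are set beside gene lists below are not matched for brightness.

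**Figure D1:**
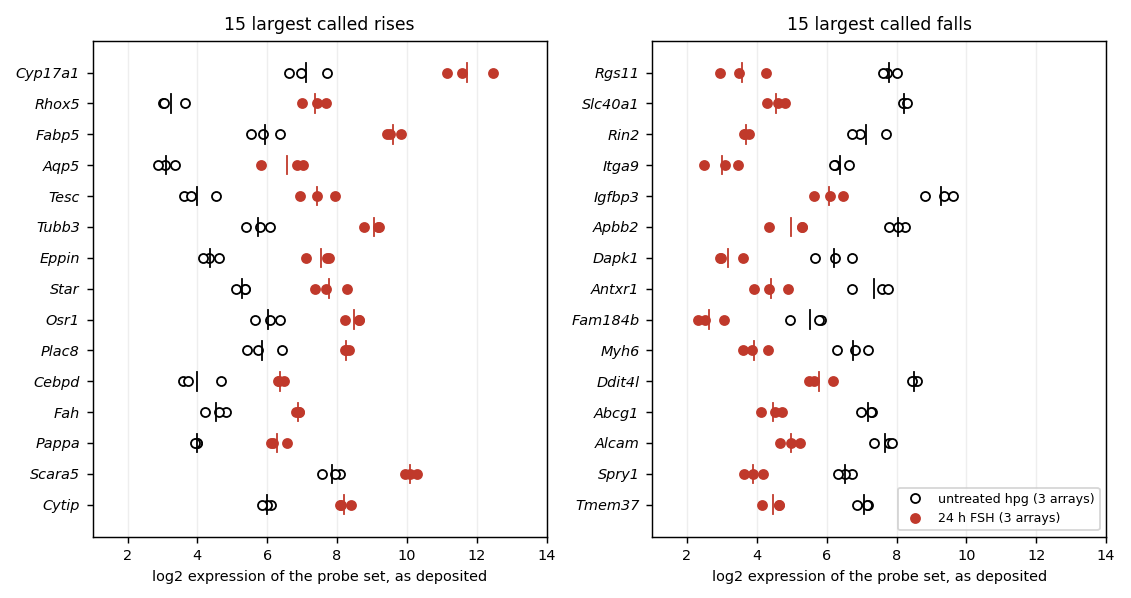
Log2 expression on each array (x axis) for the 15 genes with the largest called rise and the 15 with the largest called fall, 1 probe set a gene. Open black circles are the 3 untreated controls, filled red circles the 3 FSH arrays and short bars the group means. Lack of overlap was part of the choice of these genes, and Cyp17a1 (4.62) and Rgs11 (-4.21) head the panels.

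The genes that turn cholesterol into steroid hormones included the largest called rise among genes taken at their brightest probe set. Cyp17a1, the enzyme that converts progestins into androgens, read 11.57, 11.16 and 12.46 on the FSH arrays and 7.71, 6.98 and 6.63 on the control arrays. The groups lay far apart, and the rise was 24.7-fold (4.62 ± 0.44 SE, limma adjusted p = 0.0219 and 3.06e-05). Star, which carries cholesterol to the inner mitochondrial membrane, read 7.36, 7.68 and 8.29 after FSH and 5.12, 5.37 and 5.36 in controls, a rise of 5.64-fold (2.5 ± 0.25, adjusted p = 0.0247 and 0.000176). In whole testis a larger number of Leydig cells and more RNA per cell cannot be told apart, and the same holds for every cell type below.

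Cyp11a1, which makes the first cut in the side chain of cholesterol, read 5.27, 7.51 and 8.08 after FSH against 2.86, 2.86 and 3.05 in controls, where it lay at the floor. The FSH arrays were all higher but spread widely, so the difference of 4.03 ± 0.76 passed only with the pooled spread (adjusted p = 0.0827 and 0.00648). Nr0b1, a nuclear receptor that represses steroid synthesis genes, rose by 0.63 ± 0.07 (adjusted p = 0.0315 and 0.00587). Hsd11b1, which regenerates active glucocorticoid, fell from 3.66 to 2.90 (-0.76, adjusted p = 0.0244 and 0.039). Fdx1, the electron donor of Cyp11a1 (0.81), Tspo, a cholesterol-binding protein of the outer mitochondrial membrane (0.77), and Scarb1, the receptor that takes up lipoprotein cholesterol (0.62), passed only with the pooled spread.

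Not all of the pathway moved. Hsd3b1, which makes progesterone, read 11.17, 11.89 and 11.04 after FSH and 11.78, 12.06 and 11.81 in controls, with overlapping groups (-0.52 ± 0.25, adjusted p = 0.358 and 0.223). Hsd17b3, which makes testosterone, stayed at the floor (2.79 against 2.75). Among the 19 measured genes of steroid synthesis 3 rose and 1 fell, or 8 and 2 with the pooled spread, with a median difference of 0.12. Over all 12393 genes, at 1 probe set a gene, 0.767% were called higher and 1.34% lower, 6.47% and 8.34% with the pooled spread, and the median was 0.04. These shares are the background for the list counts that follow.

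Genes of Sertoli cells known to respond to androgen were the list with the highest median among the 36 lists described. Of 10 measured members 3 rose and none fell (5 and 0 with the pooled spread), 7 were entirely higher (70%, against 24.7% of all genes) and the median difference was 0.81. Rhox5, an X-linked homeobox gene, read 7.42, 7.00 and 7.68 after FSH and 3.03, 3.04 and 3.64 in controls. It rose 17.5-fold (4.13 ± 0.25, adjusted p = 0.0127 and 8.00e-05). Eppin, a protease inhibitor of Sertoli cells and epididymis, read 7.10, 7.78 and 7.70 against 4.34, 4.62 and 4.15 and rose 8.91-fold (3.16 ± 0.23, adjusted p = 0.0132 and 0.00016).

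Fkbp5, a co-chaperone of steroid receptors, read 8.97, 8.95 and 8.95 after FSH against 7.95, 7.63 and 7.63, and rose 2.33-fold (1.22 ± 0.10, adjusted p = 0.0164 and 3.44e-06). Its second probe set rose by 2.28. Drd4, a dopamine receptor, read 3.30, 4.61 and 6.17 against 2.53 to 2.54 in controls, so that its 3 treated mice differed more among themselves than for most members. It passed only with the pooled spread (2.16 ± 0.74, adjusted p = 0.237 and 0.0114), and its second probe set lay at the floor (1.53 and 1.55). Tsx, an X-linked Sertoli gene, gave 0.86 without a call (adjusted p = 0.32 and 0.133).

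The FSH receptor and the cyclic AMP pathway showed no call on the 6 arrays among 32 measured genes, and 3 lower and 0 higher with the pooled spread, close to the 8.34% of all genes that were lower. With the replicate block as well, 4 were lower and 4 higher. The median was -0.17. Fshr, the receptor itself, read 4.34, 3.88 and 4.84 after FSH and 5.86, 5.4 and 5.52 in controls. The groups did not overlap, at -1.24 ± 0.28 (adjusted p = 0.11 and 0.00274). Adcy9, an adenylyl cyclase (-1.10, with overlapping groups), and Prkacb, a catalytic subunit of protein kinase A (-0.74), were the other 2.

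Regulators of G protein signalling, which speed the turning off of G proteins, held the largest called fall. Rgs11 read 4.27, 2.95 and 3.48 after FSH and 8.01, 7.72 and 7.62 in controls, an 18.6-fold fall (-4.21 ± 0.36, adjusted p = 0.0165 and 1.11e-05). The 24 h arrays were close to the floor of the array, so the size may be understated. Of 17 measured members 1 fell and none rose, or 4 and 1 with the pooled spread, against 8.34% lower and 6.47% higher among all genes. The other 3 that were lower were Rgs2 (-1.06), Rgs10 (-1.04) and Rgs3 (-0.92), and a second probe set of Rgs2 was called on the 6 arrays (-0.94 ± 0.10, adjusted p = 0.0275 and 7.62e-05). Rgs20 made the single rise, of 0.18 at the floor.

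Immediate early genes respond within minutes to many signals, and several were low. On the 6 arrays 1 of the 30 measured rose and 2 fell. With the pooled spread 1 was higher and 8 lower, against 6.47% and 8.34% of all genes, and the median was -0.21. Egr1, a zinc finger factor, read 5.28, 5.30 and 5.17 after FSH against 7.88, 7.75 and 7.08, a 5.0-fold fall (-2.32 ± 0.23, adjusted p = 0.0227 and 6.87e-05). Ccn2, a matrix-associated growth regulator, fell 5.50-fold (-2.46 ± 0.31, adjusted p = 0.0378 and 0.000215).

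Ier3 (-1.97), Jun (-1.42), Klf4 (-1.37), Dusp1 (-1.22), Ier5 (-0.98) and Dusp6 (-0.97) were lower with the pooled spread only. Cebpd, a C/EBP factor that is inducible by cyclic AMP, went the other way. It read 6.32, 6.47 and 6.33 after FSH and 4.67, 3.60 and 3.72 in controls, a rise of 5.20-fold (2.38 ± 0.31, adjusted p = 0.0394 and 0.000923). Its relative Cebpb did not move beyond its spread (-0.16 ± 0.24, adjusted p = 0.698 and 0.721).

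Among ligands, receptors and mediators of the inhibin, activin and bone morphogenetic protein family, Inha was the only call of 38 on the 6 arrays. Inha encodes the alpha chain of inhibin, the hormone with which Sertoli cells restrain pituitary FSH. It read 11.94, 12.05 and 11.70 after FSH and 10.05, 10.20 and 10.19 in controls, a rise of 3.37-fold (1.75 ± 0.11, adjusted p = 0.0127 and 2.48e-06). Its partner chains were not called at 24 h, with Inhbb at -0.02 ± 0.29 (adjusted p = 0.963 and 0.949) and Inhba at 0.46 ± 0.13 (adjusted p = 0.168 and 0.129). The same probe set of Inhbb was called higher at 12 h (0.85, adjusted p = 0.00786) and at 72 h (0.72, adjusted p = 0.0202), but its differences from 24 h were not called.

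With the pooled spread 3 members of this family were higher and 5 lower, against 6.47% and 8.34% of all genes, and the median was -0.05. Those higher besides Inha were Fstl3, an activin-binding protein (0.71), and Amhr2, the receptor of anti-Müllerian hormone (0.64). Those lower were the signal transducers Smad3 (-0.92), Smad4 (-0.76) and Smad1 (-0.67), the decoy receptor Bambi (-0.72) and the receptor Bmpr1a (-0.70). Amh itself lay at the floor in both groups, at 1.59 and 1.58.

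The insulin-like growth factor (IGF) axis held a strong rise and a strong fall. Pappa, a protease that frees IGF by cleaving its binding proteins, read 6.16, 6.58 and 6.11 after FSH and 4.0, 4.0 and 3.94 in controls, and rose 4.94-fold (2.3 ± 0.14, adjusted p = 0.0127 and 0.000581). Igfbp3, the main binding protein in serum, read 6.46, 6.08 and 5.63 against 9.37, 9.62 and 8.81, and fell 9.27-fold (-3.21 ± 0.30, adjusted p = 0.0214 and 0.000948). The groups were clearly apart in both genes.

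All 3 probe sets of Igf1, the growth factor itself, gave nearly the same difference. The brightest read 9.86, 10.00 and 10.15 after FSH against 7.84, 8.41 and 6.97 in controls, where the spread was wide (2.27 ± 0.38, adjusted p = 0.0663 and 7.58e-05). The second was called on the 6 arrays (2.19 ± 0.21, adjusted p = 0.0222), and the remaining one gave 2.20 ± 0.32 (adjusted p = 0.0501). Igf2 was lower with the pooled spread only (-1.26 ± 0.28, adjusted p = 0.109 and 0.00126), as was Irs1, an adaptor of the receptors (-1.13). Of 18 measured genes of the axis 1 rose and 1 fell, with a median of -0.31. With the pooled spread 2 were higher and 3 lower, against 6.47% and 8.34% of all genes.

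Iron handling showed opposite changes in export and uptake. Slc40a1, ferroportin, the iron exporter of cells, read 4.59, 4.30 and 4.79 after FSH and 8.20, 8.17 and 8.31 in controls, a 12.7-fold fall (-3.67 ± 0.14, adjusted p = 0.00722 and 2.79e-07). Its second probe set fell by 2.38. Slc11a2, which moves ferrous iron into the cytosol, read 7.59, 7.74 and 7.26 against 5.71, 5.77 and 5.44 and rose 3.69-fold (1.89 ± 0.16, adjusted p = 0.0164 and 4.05e-05).

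Slc39a14, an importer of zinc and iron, rose 2.29-fold (1.2 ± 0.12, adjusted p = 0.0223 and 0.0017). Scara5, a scavenger receptor that takes up ferritin and is not in the iron list, read 10.08, 10.28 and 9.94 after FSH and 8.08, 7.95 and 7.58 in controls, and rose 4.70-fold (2.23 ± 0.16, adjusted p = 0.0132 and 3.12e-06). Of the 16 measured genes of the iron list 2 rose and 1 fell, and the median was 0.11. With the pooled spread 3 were higher and 1 lower, against 6.47% and 8.34% of all genes.

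Of 34 measured genes of fatty acid use 2 rose and none fell, and 3 were higher and 1 lower with the pooled spread, against 6.47% and 8.34% of all genes. Fabp5, a fatty acid binding protein, read 9.42, 9.52 and 9.82 after FSH and 6.38, 5.53 and 5.89 in controls, a rise of 12.6-fold (3.65 ± 0.25, adjusted p = 0.0132 and 4.91e-06), with 3.90 for its second probe set. Fads2, a desaturase that makes long unsaturated fatty acids, rose 3.07-fold (1.62 ± 0.13, adjusted p = 0.0164 and 2.58e-05). The mitochondrial and glycerol genes that follow were chosen after their values were seen. Slc25a5, which exchanges ADP and ATP across the inner mitochondrial membrane, had 8 probe sets, all higher by 1.13 to 1.81, and 5 of them were called.

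Cycs, cytochrome c, rose in all 3 of its probe sets by 1.23, 1.29 and 1.5, the brightest of them with 13.32, 13.19 and 13.03 after FSH against 12.01, 11.90 and 11.93. Gpd1, the cytosolic glycerol phosphate dehydrogenase, rose in both of its brighter probe sets (2.0 ± 0.17 and 1.75 ± 0.12), while its dimmer ones gave 0.41 and 0.04. Gsta4, a glutathione transferase that clears lipid aldehydes, rose 1.97-fold (0.98 ± 0.08, adjusted p = 0.0164 and 2.97e-05), and Pgk1, a kinase of glycolysis, rose 2.97-fold (1.57 ± 0.19, adjusted p = 0.0362 and 0.00204).

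Enzymes of cholesterol synthesis and ER chaperones showed no call on the 6 arrays. With the pooled spread 5 of 20 cholesterol genes were higher and 1 lower, with Fdps at 0.88 and Tm7sf2 at 0.70 and with Scap, the escort of the sterol sensor, at -0.63, and the median was 0.27. Of 21 chaperone genes 3 were higher and 1 lower, namely Calr (0.82), Hsp90b1 (0.77), Pdia6 (0.55) and Herpud1 (-0.73), with a median of 0.31. Among 27 glutathione and antioxidant genes 1 rose on the 6 arrays. With the pooled spread 5 of them were higher and 2 lower, against 6.47% and 8.34% of all genes.

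Tubb3 and 2 other tubulins rose. Tubb3, a beta tubulin best known from neurons, read 9.21, 9.17 and 8.77 after FSH and 5.38, 6.09 and 5.78 in controls, a rise of 9.86-fold (3.30 ± 0.22, adjusted p = 0.0132 and 2.79e-07). Tubb5, a widely used beta tubulin, rose 2.57-fold (1.36 ± 0.12, adjusted p = 0.0188 and 2.51e-06). Tuba1a, an alpha tubulin, rose 2.07-fold (1.05 ± 0.12, adjusted p = 0.031 and 0.000137). Of 23 measured tubulin and cytoskeleton genes 3 rose and none fell, 4 and 0 with the pooled spread, against 6.47% and 8.34% of all genes. The median was 0.22.

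Junction genes of the blood-testis barrier included 2 falls. F11r, the junctional adhesion molecule A, read 8.13, 8.39 and 7.92 after FSH against 9.69, 9.61 and 9.84, a 2.95-fold fall (-1.56 ± 0.14, adjusted p = 0.0188 and 7.24e-05), which its second probe set at the floor did not show. Cldn1, a claudin, fell by 0.97 (adjusted p = 0.0263 and 0.00662), and its other 3 probe sets lay near the floor. Of 26 measured members 2 fell and none rose, and the median was -0.09. With the pooled spread 6 were lower and 1 higher, against 8.34% and 6.47% of all genes. The others lower were Cldn5 (-1.69), Jup (-1.08), Tjp1 (-1.07) and Ocln (-0.87), and the rise was in Jam3 (1.01), the junctional adhesion molecule C.

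Matrix genes changed in both directions. Col18a1, a collagen of basement membranes, read 9.24, 8.78 and 8.52 after FSH and 6.98, 6.94 and 6.5 in controls and rose 4.12-fold (2.04 ± 0.23, adjusted p = 0.0315 and 5.13e-05). Sparc, a matrix glycoprotein, rose 1.97-fold (0.98 ± 0.13, adjusted p = 0.0437 and 0.00085). Dcn, the proteoglycan decorin, read 11.62, 11.70 and 11.26 against 12.66, 12.84 and 12.71 and fell 2.31-fold (-1.21 ± 0.14, adjusted p = 0.0309 and 0.00144). Among 39 collagens, laminins and assembly genes 2 rose and 1 fell. With the pooled spread 5 were higher and 5 lower, against 6.47% and 8.34% of all genes. The laminins Lamb1 (-1.31), Lama2 (-1.05), Lama4 (-1.0) and Lamc1 (-0.72) were on the lower side, and Col5a2 (2.04), Serpinh1, a collagen chaperone (1.30), and Col4a1 (1.17) on the higher.

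Timp3, an inhibitor of metalloproteases that binds the matrix, fell 3.90-fold (-1.96 ± 0.24, adjusted p = 0.0361 and 0.000257). Of its 4 probe sets only 1 other is given here, which fell by 1.43. With the pooled spread the metalloproteases Mmp11 (-1.58) and Mmp2 (-1.41) and the serpins Serpina5 (-1.48) and Serping1 (-1.16) were lower as well. In Wnt signalling none of 29 measured genes was called on the 6 arrays. With the pooled spread 1 was higher and 5 lower, against 6.47% and 8.34% of all genes. The higher one was Wif1, a secreted inhibitor (1.43 ± 0.29, adjusted p = 0.0956 and 0.00259). Among the lower ones were the ligands Wnt5a (-1.40) and Wnt6 (-1.11) and the receptor Fzd7 (-1.29).

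The remaining pathway lists held few calls. In amino acid transport 1 of 24 genes rose on the 6 arrays, Slc7a4 (1.40 ± 0.16, adjusted p = 0.0331), which missed the threshold with the pooled spread (adjusted p = 0.0893). It read 4.22, 3.60 and 3.92 after FSH and 2.52 in all 3 controls, at the floor, so its SE on the 6 arrays is likely too small. Slc38a5, a glutamine transporter, was at 2.89 and passed only with the pooled spread. Among 22 genes of glucose use 1 rose. With the pooled spread 3 of them were higher and 2 lower, against 6.47% and 8.34% of all genes. The lower ones were Pdk1, which restrains pyruvate oxidation (-1.09), and Slc16a1, a lactate transporter (-0.69).

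Of 20 genes of the G1 phase only Cdkn1b, the inhibitor p27, was called (-1.65, adjusted p = 0.0486 and 0.00018), and a dim second probe set gave 0.24. Ccnd1, cyclin D1 (-1.23), and Rbl2, a relative of the retinoblastoma protein (-1.21), were lower with the pooled spread. None of 20 interferon response genes, 18 retinoid genes or 15 vascular growth genes was called on the 6 arrays. The interferon-induced Ifitm1 (-2.15) and Gbp3 (-0.80) and the retinaldehyde dehydrogenase Aldh1a3 (-1.28) were lower with the pooled spread.

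**Figure D2:**
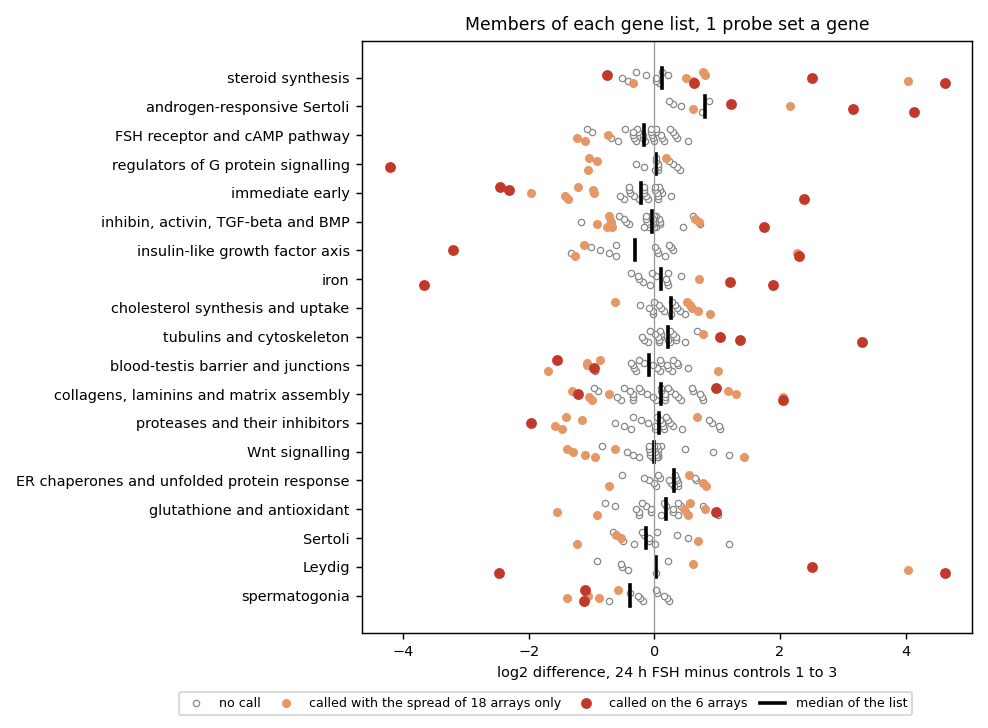
Difference in log2 expression (24 h FSH minus controls, x axis) of each measured member of 19 gene lists, 1 probe set a gene. Red points were called on the 6 arrays, orange points only with the pooled spread, open grey points had no call, and black bars mark the list medians. Most members lie near 0 and the called ones far from it, and the androgen-responsive Sertoli list has the highest median (0.81) and the spermatogonia list the lowest (-0.39).

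Other strong rises belonged to no common list. Aqp5, a water channel, read 6.84, 7.02 and 5.83 after FSH and 3.07, 2.86 and 3.35 in controls, a rise of 11.1-fold (3.47 ± 0.35, adjusted p = 0.0244 and 2.58e-05), and it was the only one of 8 measured aquaporins to be called. Tesc, a calcium-binding protein of the early gonad, read 7.94, 7.42 and 6.94 against 4.52, 3.61 and 3.82 and rose 10.9-fold (3.45 ± 0.35, adjusted p = 0.0249 and 0.000131). Fah, the last enzyme of tyrosine breakdown, rose 5.07-fold (adjusted p = 0.0132 and 9.51e-05), and Osr1, a zinc finger factor of the urogenital system, 5.52-fold (adjusted p = 0.0188 and 0.00513). Plac8 rose 5.33-fold (adjusted p = 0.0302 and 1.35e-05) and Cytip, a partner of cytohesins, 4.63-fold (adjusted p = 0.00978 and 0.000251).

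The falls included membrane and signalling proteins. Itga9, an integrin alpha chain, read 3.45, 2.48 and 3.09 after FSH and 6.23, 6.65 and 6.22 in controls, a 10.3-fold fall (-3.36 ± 0.28, adjusted p = 0.0164 and 8.23e-06). Rin2, an activator of Rab5, read 3.76, 3.67 and 3.63 against 7.69, 6.96 and 6.73 and fell 10.9-fold (-3.44 ± 0.26, adjusted p = 0.0136 and 5.95e-07). Dapk1, a kinase that promotes cell death, and Apbb2, an adaptor, each fell 8.30-fold. Antxr1, a collagen-binding receptor (7.77-fold), Fam184b (7.46-fold), Myh6, the cardiac alpha myosin heavy chain (7.12-fold), Ddit4l, an inhibitor of mTOR (6.68-fold), Abcg1, an exporter of cholesterol (6.59-fold), Alcam, an adhesion molecule (6.52-fold), Spry1, an inhibitor of receptor tyrosine kinase signalling (6.18-fold), and Tmem37 (6.04-fold) followed.

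Defining markers of the testis were present in both groups. Sertoli markers read high in FSH and control arrays, as with Clu (13.91 and 14.24), Aard (13.24 and 13.31) and Sox9 (8.90 and 9.11), but Amh lay at the floor. Of 16 measured Sertoli markers none was called on the 6 arrays. With the pooled spread 1 was higher and 3 lower, against 6.47% and 8.34% of all genes. The mean of the list was 8.10 to 8.37 after FSH and 8.16 to 8.6 in controls, so it overlapped. Gata4 (-0.66) and Wt1 (-0.50), transcription factors of Sertoli cells, were lower without a call and with overlapping groups. Kitl, the stem cell factor of Sertoli cells, was 0.04 at 24 h (adjusted p = 0.912 and 0.913) and 0.97 at 12 h (adjusted p = 0.0017). The difference between these times was not called (-0.93 ± 0.24, limma adjusted p = 0.088).

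Leydig markers divided. Their mean was 7.34 to 7.62 after FSH against 6.74 to 6.94, without overlap, while the median difference of the 11 measured was 0.03, since Cyp17a1, Cyp11a1 and Star carried the mean. Nr5a1 (-0.42), Nr2f2 (-0.54) and Pdgfra (-0.92), members of the list that encode no steroid enzyme, were not called in either test. Ptch1, the receptor for hedgehog ligands, read 7.58, 6.51 and 6.76 after FSH and 9.75, 9.53 and 9.0 in controls, and fell 5.56-fold (-2.48 ± 0.35, adjusted p = 0.0486 and 4.96e-05). Dhh, the hedgehog ligand made by Sertoli cells, was 9.49 and 9.45.

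Markers of spermatogonia, the dividing germ cells, had a lower mean after FSH. The mean of the 17 measured was 6.02 to 6.30 after FSH against 6.61 to 6.74, without overlap, and 7 of 17 were entirely lower (41.2%, against 12.8% of all genes). On the 6 arrays 2 fell and none rose, and with the pooled spread 7 and 0, against 8.34% lower and 6.47% higher among all genes. Sall4, a factor of undifferentiated germ cells, read 5.05, 4.71 and 4.90 against 6.01, 5.89 and 6.04 and fell 2.14-fold (-1.10 ± 0.10, adjusted p = 0.021 and 0.000232), and Elavl2, an RNA-binding protein, fell 2.18-fold (-1.12 ± 0.13, adjusted p = 0.0315 and 0.0263).

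Kit, the receptor of stem cell factor on differentiating spermatogonia, read 6.52, 5.4 and 6.05 after FSH and 7.67, 7.23 and 7.23 in controls, and passed only with the pooled spread (-1.39 ± 0.32, adjusted p = 0.115 and 0.0126). Its second probe set, at -0.86 ± 0.40, passed in neither. Stra8, needed for entry into meiosis (-1.06), and Dazl, an RNA-binding protein of germ cells (-0.58), passed only with the pooled spread. Among 19 spermatocyte markers Dmc1, the meiotic recombinase, fell by 0.51 (adjusted p = 0.0238 and 0.0544), and Sycp3, a protein of the synaptonemal complex, did not separate the groups (-0.08). The proliferation genes Mki67 (-0.81) and Mcm4 (-0.70) fell. They were the only calls among 25 S phase and mitosis genes in either test, and 2 of 25 lower with the pooled spread is near the 8.34% of all genes.

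Markers of other cell types were rarely called. Of 15 peritubular myoid and 12 endothelial markers none was called on the 6 arrays. Of 15 macrophage markers 6 were entirely higher (40%, against 24.7% of all genes) and 1 entirely lower, with a median of 0.08, and none was called higher. Cd68 (0.65), Lyz2 (0.50) and Adgre1 (0.26) were among those higher without a call. Csf1r, the receptor of the macrophage growth factor, was called lower (-0.73), and its other 2 probe sets gave -0.06 and -0.71 without a call. The red blood markers Hba-a1 (2.48 and 2.44) and Alas2 (1.98 and 1.97) lay at the floor. The 4 epididymal markers averaged 2.48 to 2.56 after FSH and 2.37 to 2.78 in controls. The 4 fat markers averaged 2.74 to 3.16 after FSH and 2.65 to 4.34 in controls, where control 1 was the highest.

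Genes with several probe sets allowed a check within the same arrays. Of 4956 such genes 203 had at least 1 call, 27 had at least 2, and in 0 genes did 2 called probe sets go in opposite directions. In 153 of the 203 all probe sets had the same sign. Taking the called probe set with the smallest p, 294 of 323 companions at a level of 4 or more had its sign, and 59 of 103 dimmer ones. With the pooled spread 1354 of these genes had a call and 21 held calls in opposite directions.

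Agreement was close for Fabp5, Igf1, Slc25a5, Cycs, Mef2c and Fcgr2b. Fcgr2b, an inhibitory receptor for antibodies, fell by 1.79, 2.57 and 2.67 in 3 called probe sets and read -3.21 ± 0.56 in the remaining one. All 5 probe sets of Mef2c, a factor of muscle and neural development, lay between -1.22 and -2.41. All 3 of Star were higher, at 2.5, 3.83 and 2.25.

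For a few genes the probe sets disagreed. Lin7c, a scaffold protein of cell junctions, had the largest difference of any called probe set, with 7.74, 6.57 and 8.01 after FSH against 2.37, 2.52 and 2.50 in controls (4.98 ± 0.40, adjusted p = 0.0157 and 9.80e-07). Its brightest probe set was -0.75 ± 0.24, another was 0.28 ± 0.14, and the last, also at the floor in controls, was 2.36 ± 0.69. Itga9 fell in its brightest probe set, while the others gave 0.24 ± 0.22 and -0.26 ± 0.13. Dimmer probe sets of Antxr1 (0.24 ± 0.11, adjusted p = 0.0349 with the pooled spread) and Myh6 (0.41 ± 0.16) also opposed the called one.

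Gpd1 held a different kind of disagreement. Both of its brighter probe sets rose at 24 h, but the one that rose by 1.75 was 0.44 at 12 h and 0.45 at 72 h, and both differences from 24 h were called (adjusted p = 0.00251 and 0.00261). The one that rose by 2.0 was 1.92 at 12 h and 2.2 at 72 h, without a called difference (adjusted p = 0.794 and 0.67).

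**Figure D3:**
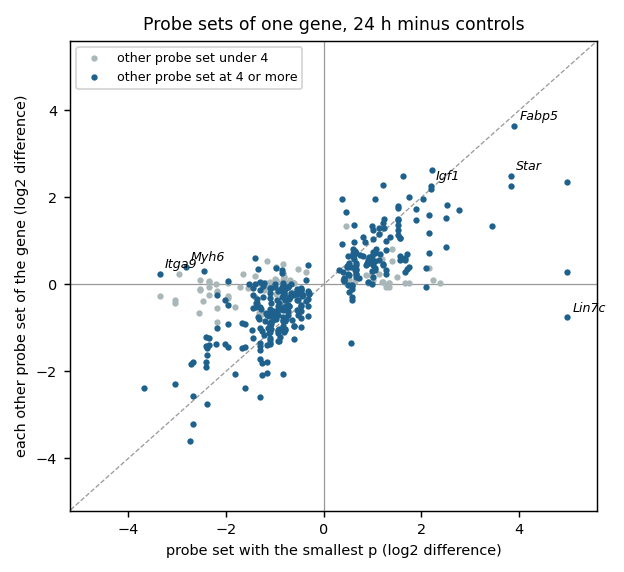
For 203 genes with several probe sets and a call, the difference of the probe set with the smallest p (x axis, log2) against that of each other probe set of the gene (y axis, log2). Blue points are companions that reached a group mean of 4 or more and grey points dimmer ones, and the dashed line marks equal values. Of the blue points 294 of 323 share the sign of the called probe set, and the labelled Lin7c points and Itga9 lie away from the line.

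The 24 h result was set beside 12 h and 72 h, which were compared with controls 4 to 7 on the spiked arrays. Their differences share no sample with those at 24 h. Their calls used the pooled spread, which takes in the 24 h arrays and controls 1 to 3. Of the 393 probe sets 367 (93.4%) had the same sign at 12 h and 376 (95.7%) at 72 h, against 55.8% and 73.8% of all probe sets. Called in the same direction were 213 at 12 h and 242 at 72 h, and 0 were called in the opposite one. At 12 h 3.2% of all probe sets were called higher and 2.16% lower, and at 72 h 3.63% and 2.5%. The matching shares at 24 h are those of the pooled spread, 6.1% higher and 7.26% lower. Across all probe sets the differences correlated with r = 0.42 (12 h) and 0.56 (72 h), a description over probe sets that share arrays.

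The median of the 152 rises was 0.57 after 12 h and 0.70 after 72 h, and that of the 241 falls -0.52 and -0.55, so the medians were nearer 0 than at 24 h, where the probe sets were selected. The difference between times, each set against its own controls, was called for 198 probe sets between 24 h and 12 h (71 higher at 24 h, or 0.314%, and 127 lower, or 0.561%). Between 72 h and 24 h it was called for 84 (48 higher at 72 h, or 0.212%, and 36 lower, or 0.159%). Centring each array on its median moved the share of higher calls from 35.9% to 24.6% and from 57.1% to 69.9%. These tests also carry any difference between the array sets that acts on treated and control arrays unequally.

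**Figure D4:**
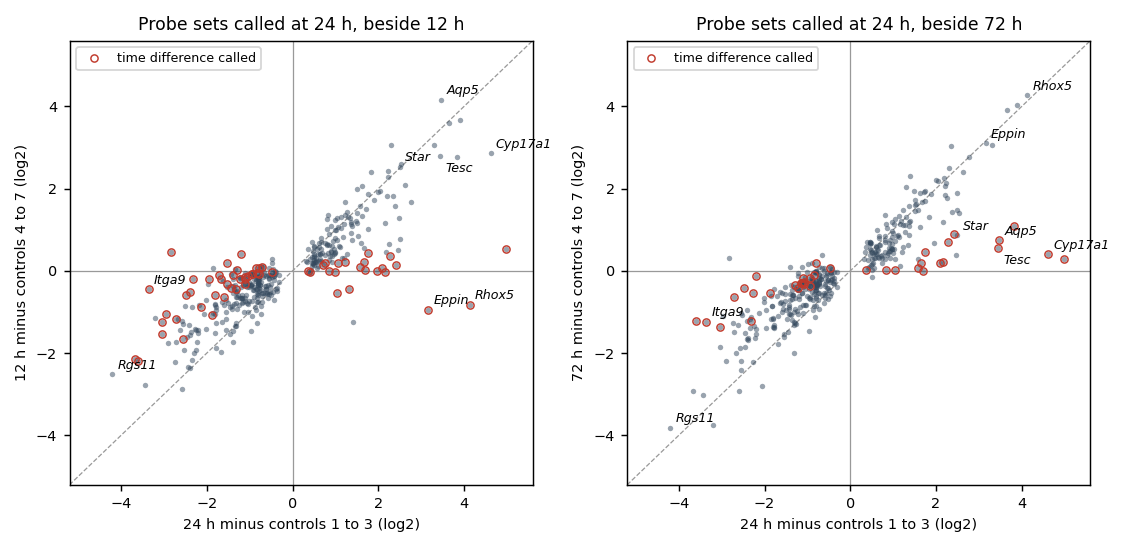
Differences of the 393 probe sets called at 24 h (x axis, log2, against controls 1 to 3) beside their differences at 12 h (left) and 72 h (right; y axes, log2, against controls 4 to 7). Red rings mark probe sets whose difference between times was called, 61 on the left and 37 on the right, and the dashed line marks equal values. Most points lie in the quadrants of equal sign.

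The steroid genes were followed over 12, 24 and 72 h. Cyp17a1 was 2.86, 4.62 and 0.40 in that order, and its drop between 24 h and 72 h was called (-4.22 ± 0.63, adjusted p = 0.00843). The brightest probe set of Star was 2.53, 2.5 and 0.87 without a called difference (adjusted p = 0.962 and 0.13). Its second was 2.76, 3.83 and 1.08, and the drop between 24 h and 72 h was called there (-2.75 ± 0.43, adjusted p = 0.0123). Cyp11a1 was 2.24, 4.03 and 1.54, also without one (adjusted p = 0.407 and 0.42).

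Rhox5, Eppin and Fkbp5, which respond to androgen, were higher at 24 h than at 12 h. Rhox5 was -0.82 at 12 h and 4.13 at 24 h, a called difference of 4.95 ± 0.63 (adjusted p = 0.00256), and 4.27 at 72 h. Eppin followed the same order with -0.95, 3.16 and 3.11 and a called difference of 4.10 between 12 h and 24 h (adjusted p = 0.00256). Fkbp5 was 0.22, 1.22 and 0.58, with a called difference of 1.0 from 12 h to 24 h (adjusted p = 0.00256). Tsx was -0.88, 0.86 and 2.33 without a called difference.

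Aqp5 (4.16, 3.47 and 0.75) and Tesc (2.79, 3.45 and 0.56) were high at 12 h and 24 h and lower at 72 h, with called differences of -2.72 and -2.89 (adjusted p = 0.0222 and 0.044). Fabp5 (3.60, 3.65 and 3.92), Tubb3 (3.06, 3.30 and 3.06), Inha (1.87, 1.75 and 1.94) and Scara5 (2.29, 2.23 and 2.14) changed little between the times. Their differences from 24 h lay between -0.24 and 0.26, without a call.

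Among the falls, Slc40a1 (-2.15, -3.67 and -2.92) fell further from 12 h to 24 h (-1.52, adjusted p = 0.0228), and Rgs11 (-2.52, -4.21 and -3.82) had no called difference. Itga9 was -0.45, -3.36 and -1.24 at the same times, and its 24 h value differed from both others (-2.91 and 2.12, adjusted p = 0.0032 and 0.0303). Ptch1 did likewise with -0.58, -2.48 and -0.41 (-1.89 and 2.06, adjusted p = 0.0231 and 0.0227). Egr1 was -0.19 at 12 h, and its difference of -2.13 from there to 24 h was called (adjusted p = 0.0115).

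**Figure D5:**
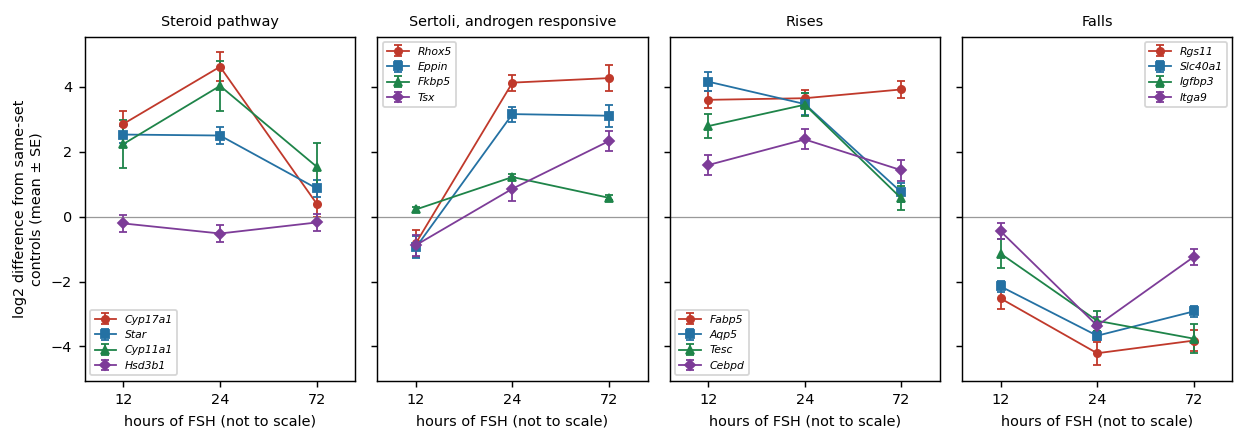
Difference from the controls of the same array set (y axis, log2, mean ± SE) after 12, 24 and 72 h of FSH for 16 genes in 4 panels. The 24 h arrays have their own controls, so lines join values from both array sets, and the time axis is not to scale. The SE at 24 h comes from the 24 h arrays and their own controls alone. The SE at 12 h and 72 h comes from the pooled spread, so bar lengths at 24 h cannot be compared with those at the other times. Rhox5 and Eppin lie below 0 at 12 h and above 3 at 24 h, and Cyp17a1, Aqp5 and Tesc return towards 0 at 72 h.

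Promoters were searched for sites of factors that cyclic AMP and steroid signals use. The search took RefSeq windows of equal length directly upstream of each gene start (GRCm38.p6), on both strands. The full cyclic AMP response element TGACGTCA, which holds the core TGACG, was in 3 of 81 promoters of genes called higher (3.7%), in 3 of 188 of genes called lower (1.6%) and in 1.55% of all 32851. The core was in 18.5%, 23.4% and 17.8%. CAAGGTCA, the site of the orphan receptor NR5A1, was in 1.23%, 0.532% and 1.33%, and the AP-1 site TGACTCA in 3.7%, 3.19% and 4.46%. The palindromic androgen response element was in none of the promoters of called genes and in 0.00913% of all. These shares describe letters in a window and were not tested.

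The full element was found upstream of Cycs, Mif and Smdt1, 3 genes that rose. Cycs is cytochrome c, Mif an inflammatory cytokine with 11.22, 11.31 and 11.18 after FSH against 10.78, 10.86 and 10.78 (0.43 ± 0.06, adjusted p = 0.0405 and 0.0159), and Smdt1 a subunit of the mitochondrial calcium uniporter (0.75 ± 0.09, adjusted p = 0.0354 and 0.000321). Cyp11a1, which passed only with the pooled spread, is shown beside them as an example of a window that holds a core. Cores also lay upstream of Rin2, Itga9 and Alcam, which fell, and of Dazl, which was lower with the pooled spread only. Cebpb, which did not move, held cores as well. The core was in 18.5% of promoters of genes called higher and in 23.4% of those called lower. A link between the core and the rise of Cyp11a1 was not tested. Each stretch is 60 bases 5′ to 3′ on the strand of the gene, and capitals mark the element, or for Cyp11a1 the core read on the opposite strand. They lie at chr6:50566710-50566769 (minus strand, Cycs), chr10:75860278-75860337 (minus, Mif), chr15:82345866-82345925 (plus, Smdt1) and chr9:57997944-57998003 (plus, Cyp11a1), and all are upstream of the gene start.
Cycs: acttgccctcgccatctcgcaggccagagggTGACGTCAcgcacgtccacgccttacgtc
Mif: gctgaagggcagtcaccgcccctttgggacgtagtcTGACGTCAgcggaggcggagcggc
Smdt1: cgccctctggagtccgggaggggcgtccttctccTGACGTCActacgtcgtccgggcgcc
Cyp11a1: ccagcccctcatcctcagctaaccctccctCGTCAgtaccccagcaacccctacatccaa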

How the data were processed

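Total RNA of whole testis was measured on 1-colour Affymetrix MOE430A arrays. The authors deposited 1 table of log2 expression values per probe set. RMA and GCRMA appear in the submitters' processing notes. Both methods correct background, normalise between arrays and combine probes. Which of the pair made the table, and in what version, is not given in these sources, and the log2 scale was taken from the range of the values. Low values lie at the floor and understate changes.

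The 22626 probe sets other than AFFX controls were fitted with limma 3.58.1 (R 4.3.3, lmFit and eBayes, two-sided, Benjamini-Hochberg over all, adjusted p below 0.05) on 3 arrays against 3, with 4 residual degrees of freedom. The pooled spread used 5 group means over 18 arrays (13 degrees of freedom). It also gave the calls and SE at 12 h and 72 h and between times. The submitters' platform annotation gave 20380 probe sets 1 symbol, 691 several and 1555 none, and 12393 genes were named, each by its brightest probe set over the 6 arrays. Values of other probe sets are printed for some genes only. Entrez identifiers of 20351 matched RefSeq and changed 0 symbols.

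Samples with the same replicate number deviated together from their group means (r = 0.179, 0.343 and 0.406, and -0.355 to 0.0679 for other pairings), which is why the replicate block is given. No label says what the number marks. The number of arrays limits precision, and no 2 arrays were duplicates (correlations 0.969 to 0.990).

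Members, the 36 gene lists (690 measured genes) and tests were chosen with earlier results of these data known, so the lists give no independent support. They are described by counts and medians, without a list test. Named were the 15 largest called rises and 15 largest called falls whose groups did not overlap, up to 4 members per list with the smallest p, the 4 largest called differences between times in each direction, and 20 genes whatever their values. Other named genes are examples chosen after their values were seen. The fitting step was tested on simulated data. Some genes are not reported here.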

Additional observations from a re-analysis of the deposited data

Results flagged for a closer look

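Differences between times, each time set against the controls of its own array set, were tested in limma over 18 arrays, and the 4 largest called ones in each direction are given here. From 12 h to 24 h the difference was higher by 4.95 for Rhox5, 4.10 for Eppin, 2.27 for Plac8 and 2.04 for Stard10, a lipid transfer protein. It was -3.29 for Myh6, -2.91 for Itga9, -2.59 for Hs3st1, a heparan sulfate sulfotransferase that was 2.75 at 12 h and 0.16 at 24 h, and -2.45 for Arntl, a core factor of the circadian clock. From 24 h to 72 h the difference was 4.03 for Drd4, 2.21 for Myh1, a skeletal myosin, 2.12 for Itga9 and 2.08 for H1f2, a linker histone that had fallen at 24 h (-2.20). It was -4.22 for Cyp17a1, -2.89 for Tesc, -2.72 for Aqp5 and -1.67 for Septin1, which was 1.69 at 24 h and 0.07 and 0.02 at 12 h and 72 h. Each of these rests on both array sets, so the times cannot be told apart from an effect of the set that differs between treated and control arrays.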

How the results depend on the processing

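The count of 393 calls became 3023 with the pooled spread, 4827 with the pooled spread and the replicate block, 8137 with all 7 controls and no set term, and 0 with the replicate block on 6 arrays. Leaving out 1 array gave 0 to 231, the least without control 2. Quantile normalisation (364), median centring (471), a filter on a mean of at least 4 (585), array weights (503) and a trended robust prior (331) stayed within 1.5 times. The 198 calls between 24 h and 12 h became 650 with the replicate block in the unspiked set, and 94 to 756 without 1 array (118 and 94 without 12 h replicate 3 or 4, 756 and 319 without 24 h replicate 1 or 3, 127, 467, 123 and 123 without control 1, 3, 6 or 7). The 84 between 72 h and 24 h became 301 with that block, 45 with the filter, and 46 to 399 without 1 array (399, 159 and 156 without 24 h replicate 1, 2 or 3, 52 and 46 without 72 h replicate 2 or 3, 221, 50 and 53 without control 3, 6 or 7). The cause of these changes was not tested. Of 59 named genes called on the 6 arrays, 57 were called with the pooled spread and 57 with its replicate block, and 54 after quantile normalisation. All 59 lost their call with the replicate block on 6 arrays and without control 2, 53 without control 1, 24 without control 3, and 43 to 46 without an FSH array. None reversed in any setting run. The pooled fit with the block and the block between times were chosen after seeing the data.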

Other observations

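Some gene families outside the lists were described as well. They were chosen after their values were seen, so counts and medians are given without a test. Among 38 SR, hnRNP and related splicing proteins 5 fell and none rose on the 6 arrays, 13 were lower and 1 higher with the pooled spread (Hnrnpll, 0.56), and 17 were entirely lower (44.7%, against 12.8% of all genes) and 1 entirely higher. The called ones were Rbmx (-1.40), Luc7l3 (-1.21), Rbm39 (-1.10), Clk1, a kinase of SR proteins (-1.10), and Srsf5 (-0.79). Luc7l3 fell in both of its probe sets, while another probe set of Rbmx gave 0.60. The family's median was -0.20 at 24 h, -0.04 at 12 h and -0.15 at 72 h. The Gapdh 3 prime minus 5 prime difference and the interquartile range of the arrays differed between the same groups, and their part in these falls was not tested.

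Of 38 measured proteasome subunits 2 rose, Psmd4 (0.52) and Psma7 (0.47), and 15 were higher and none lower with the pooled spread, with 52.6% entirely higher against 24.7% of all genes. In the respiratory chain 2 of 79 rose, Ndufb8 (0.82) and Sdhb (0.75), and 43% were entirely higher. With the pooled spread 22 were higher and 1 lower. The lower one was Cox7a2l (-0.35), of which another probe set was called lower on the 6 arrays (-0.54, adjusted p = 0.0449). Among 21 proteins of mitochondrial import Tomm40 (0.93), Timm23 (0.50) and Timm13 (0.34) rose, and 7 were higher and none lower with the pooled spread. Of 74 mitochondrial ribosomal proteins 3 rose, and 10 were higher and none lower with the pooled spread. In this family 27% were entirely higher, against 24.7% of all genes, a share not matched for brightness. It was 9.81% for probe sets with a mean of 5 to 8 and 16.9% for those at 8 or more, the range of these proteins. Over all genes 0.767% were called higher on the 6 arrays, and 6.47% were higher and 8.34% lower with the pooled spread. The medians of the 4 families at 24 h were 0.28, 0.24, 0.20 and 0.14, against 0.04 for all genes.

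Clock genes were mixed. Of 19 measured only Nr1d1 was called on the 6 arrays, a fall of 0.60 near the floor. With the pooled spread Per3 (-1.30), Nr1d2 (-1.06), Dbp (-0.82) and Tef (-0.71) were lower and none was higher. Dbp was -1.99 at 12 h and -0.94 at 72 h. Arntl, which was 1.29 at 12 h and 0.40 at 72 h, read 4.33, 3.08 and 4.77 after 24 h of FSH and 5.41, 5.49 and 4.76 in controls, with overlapping groups (-1.16 ± 0.49, adjusted p = 0.318). The hour of day at which the mice were killed is not given in the sources used here.

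In the hedgehog pathway Ptch1 was the only one of 13 measured genes called at 24 h. Gli1, another target of the pathway, read 3.02 after FSH and 3.01 in controls, near the floor.

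In 4 genes a probe set other than the brightest rose at 24 h and was near 0 at the other times, with called differences from both. The brightest probe set of the gene did not match it. Lin7c is 1 of these genes, with 4.98 at 24 h, 0.52 at 12 h and 0.29 at 72 h for a probe set that lay at the floor in controls only. Ywhag, a signalling adaptor, gave 2.09, 0.07 and 0.18 in that order for a dim probe set, and its brighter ones -0.06 and 0.37 at 24 h. Itgav, an integrin, gave 1.57, 0.10 and 0.07 for a dim probe set and 0.55 for its brightest. Hyou1, a chaperone, gave 1.70, 0.01 and -0.01 against 0.36 for its brightest. These genes were singled out after their values were seen.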
